A study of Mus musculus with 270 samples.

Results

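Lung of 26 months (M) was compared with lung of 3 M in 12 bulk RNA-seq libraries, 5 of 26 M and 7 of 3 M. They are 12 of the 45 lung libraries and of the 270 libraries of the series, and they were chosen by the organ and the age in their labels, without any measured value. All 12 mice were wild-type male C57BL/6J animals that came from the Jackson Laboratory in a single cohort, with no treatment and no engineered allele in either group, and each mouse gave 1 lung library. The organs were collected on 2 consecutive days and powdered whole, so each library holds RNA of all cells of the piece that was taken. The 33 lung libraries of 5, 8, 14 and 20 M entered the same fit and share its estimate of the spread. The question was which transcripts of whole lung differ between the youngest and the oldest mice of a study of how organs age.

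Lung is built of alveolar type 1 cells, through which gas is exchanged, alveolar type 2 cells, which make surfactant, secretory club cells and ciliated cells of the airways, endothelium, stroma and resident immune cells. Plasma cells are the antibody-secreting end stage of the B cell lineage, and in mucosal tissue they make IgA and IgM whose units are joined by the J chain. Interferons make cells transcribe antiviral genes, chemokines and MHC genes, and transcripts of lymphoid cells are known to increase in many organs of old mice.

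Labels of the tissue were checked against its markers. Scgb1a1, the secretoglobin of club cells, had 56302 to 138774 normalized counts in the 12 libraries and Sftpc, the surfactant protein of alveolar type 2 cells, had 3439 to 39802, so both were high in every library. Reads on genes numbered 5006610 to 12056405 at 3 M and 4702828 to 11979010 at 26 M, with a mean difference of 0.07 on the log2 scale (exact permutation test over 792 regroupings, two-sided, p = 0.824, where the smallest possible p is 0.00253). Libraries that stood apart were found in both groups, and mice are named here by the number in their labels. In c3668 (26 M replicate 3), transcripts of a list of 49 hepatocyte genes took 8147 RPM (their summed reads scaled to the reads of the library), against 779 to 1445 in the other 4 libraries of 26 M and 916 to 2258 at 3 M. Alb, the serum albumin made by hepatocytes, had 17711 normalized counts there and at most 3682 in the other 11 libraries. The kidney tubule, skeletal muscle and brain lists were also highest in c3668, at 1758, 1205 and 2411 RPM. In the other 4 libraries of 26 M the kidney tubule list took 151 to 256 RPM, against 212 to 788 at 3 M. Without c3668 its median log2 difference was -1.59. There 1 of its 21 tested genes was higher, and 7 were lower at an unadjusted p of at most 0.05 (limma). The hepatocyte list then had -0.77 with 2 of 46 higher, and the cardiomyocyte list 0.27 with 11 of 16 higher. Myh4, the myosin of fast muscle fibres, had 3619 normalized counts in c3668 and 1080 in c953 (3 M replicate 2), and at most 6.22 elsewhere. Of the 12 libraries only c3668 and c953 carry a suffix b in their column names, described below. At 3 M, c1164 and c1190 (replicates 6 and 7) had reads on 24071 and 23827 genes, against 16054 to 20894 in the other 10 libraries, and c1114 (replicate 5) had by far the most plasma cell transcripts of its group. The cardiomyocyte list was not higher in c3668, at 513 RPM against 353 to 638 in the other 11. How these libraries came to differ was not tested.

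**Figure D1:**
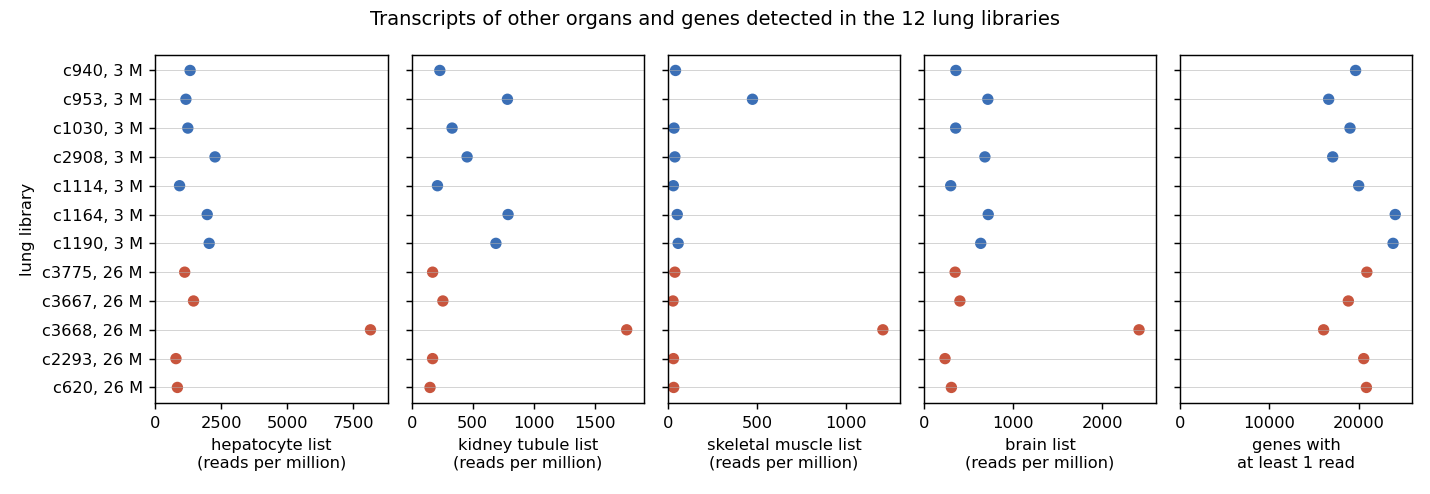
Summed RPM of 4 lists of genes of other organs and number of genes with at least 1 read, for each of the 12 lung libraries (blue 3 M, red 26 M; 1 point per library). The library c3668 lies far to the right in all 4 lists (8147 RPM for hepatocyte genes), and c1164 and c1190 have the most genes with a read.

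The 45 mice also divided into 2 sets by the sign of the first principal component of the heart libraries of the same animals, which held 30.5% of the variance in heart. In lung the sets differed most visibly in Sftpd, a surfactant collectin of alveolar type 2 cells. It had 14553 to 18884 normalized counts in the 4 libraries of 3 M in the first set and 1348 to 1864 in the other 3, and at 26 M it had 14786, 17592 and 8695 against 1449 and 1564. Transcripts of heat shock genes and chaperones followed the same division at 3 M, with 12818 to 19600 against 6867 to 8777 RPM. Nothing in the labels names these sets. At every age the first set held the lower replicate numbers, which follow the order of the sample records. Both ages are in both sets, and differences within each set are given beside the pooled ones where the results turn on them. What the sets stand for was not tested.

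No gene passed the test between 26 M and 3 M. Of 21257 genes tested with limma, 0 (0.00%) had a Benjamini-Hochberg adjusted p of at most 0.05, and 308 (1.45%) had an unadjusted p of at most 0.05, 151 (0.710%) higher at 26 M and 157 (0.739%) lower. The edgeR quasi-likelihood test on the recovered reads also called 0, with 895 genes at an unadjusted p of at most 0.05. DESeq2 called 25, of which 8 (0.0376%) were higher at 26 M and 17 (0.0800%) lower. The 17 lower ones were at 0 in every library of 26 M and had means of 0.0889 to 6.23 normalized counts at 3 M, at most 3.06 in any library of 3 M other than c1164 and c1190. The 8 higher ones were Cxcl9, Gm45781, Iigp1, Epsti1, Igha, S100a9, Ms4a4b and Ighg1, all named for their calls, and among them are genes of the interferon response, antibody genes and genes of T cells and neutrophils. In 15 genes (0.0706%) all values of 26 M lay above all of 3 M, and in 16 (0.0753%) all lay below. The median log2 difference over all tested genes was -0.10, which moved to -0.01 without c3668 and to 0.10 without c3668, c1164 and c1190, and differences of lists are read against it. Of all tested genes 42.0% were higher at 26 M, and 49.4% without c3668. Counts of higher or lower members of a list are read against these shares. Values that follow are therefore given as higher or lower at 26 M and not as changes.

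Jchain and constant region genes of antibodies were among the genes with the smallest p. Jchain, the J chain of IgA and IgM, had the smallest p of all genes, and H2-M2, a nonclassical MHC class I gene, had the next among genes named here. The 250 bases before each transcription start are shown for these 2, in lower case, with the first 10 transcribed bases in capitals, from RefSeq on GRCm38.p6. The Jchain run is chr5:88527888-88528147 and the H2-M2 run chr17:37483545-37483804, both read from the minus strand.
Jchain: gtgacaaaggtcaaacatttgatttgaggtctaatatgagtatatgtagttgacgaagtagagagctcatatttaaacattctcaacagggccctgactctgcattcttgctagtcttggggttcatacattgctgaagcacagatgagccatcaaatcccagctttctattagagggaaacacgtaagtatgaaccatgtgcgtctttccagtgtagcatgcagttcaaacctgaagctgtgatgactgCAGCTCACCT
H2-M2: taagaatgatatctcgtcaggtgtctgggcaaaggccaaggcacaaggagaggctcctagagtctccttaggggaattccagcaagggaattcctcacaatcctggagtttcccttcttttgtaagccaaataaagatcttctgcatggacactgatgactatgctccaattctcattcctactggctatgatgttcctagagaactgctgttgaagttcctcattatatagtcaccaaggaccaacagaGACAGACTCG
Neither promoter window held TTTGCAT on either strand, a core of the octamer that Oct factors bind in antibody and B cell genes. Genes were counted where any of their promoter windows held the motif. These were 1416 of 27025 genes with a window (5.24%) and 690 of 14963 tested genes with a window (4.61%). In the plasma cell list they were 0 of 15 and in the B cell list 2 of 15 (13.3%). These are matches of letters in the window from 250 bases before to 50 after the start and say nothing about binding.

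Jchain had 4194, 3377, 2181, 1149 and 1181 normalized counts in the 5 libraries of 26 M (mean 2417 ± 1348, SD, n = 5), and 52.1 at the lowest, 116 at the median and 3496 at the highest in the 7 of 3 M (mean 613 ± 1274, SD, n = 7). All values of 26 M lay above those of 6 mice of 3 M, whose highest was 275, and the seventh mouse, c1114, lay within the range of 26 M. The difference was 3.54 ± 0.72 (log2, SE; limma, unadjusted p = 8.17e-06, adjusted p = 0.174). Within the sets of mice it was 4.66 and 1.95, and without c3668 it was 3.53. Without c1114 the difference was 4.25 with an adjusted p of 0.000363 in limma, and Ighm and Ighg2b then passed too, with 3.52 (adjusted p = 0.0159) and 5.62 (adjusted p = 0.0276). In bulk lung, fewer cells of a type and less RNA per cell cannot be told apart, for these and for all genes that follow.

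The heavy chain constant regions had the same order of groups. Ighm, which encodes the constant region of IgM, had 6740, 2982, 453, 718 and 872 normalized counts at 26 M and 50.1, 155 and 3805 at the lowest, median and highest of 3 M. Its highest value of 3 M was again c1114 and the next was 381, below all 5 values of 26 M. The difference was 2.81 ± 0.72 (SE; limma, unadjusted p = 0.000281, adjusted p = 0.994). Ighg2c, of IgG2c, had 637, 1112, 278, 18.1 and 614 at 26 M against 0, 6.12 and 264 at 3 M, a difference of 5.22 ± 1.27 (SE; limma, adjusted p = 0.934). Here c2293 (26 M replicate 4), at 18.1, lay below both c1114 and the next mouse of 3 M, at 22.0. Ighg2b, of IgG2b, had 304, 1438, 85.4, 30.8 and 266 at 26 M against 0.611, 4.36 and 626 at 3 M, a difference of 4.58 ± 1.17 (SE; limma, adjusted p = 0.994). Igha, of the IgA of mucosal surfaces, had 1015, 1856, 218, 128 and 28.1 at 26 M against 6.87, 30.6 and 126 at 3 M, and Ighd, of the IgD of naive B cells, had 349, 405, 253, 214 and 284 against 108, 332 and 549. Igha overlapped between the groups in 1 old mouse, and Ighd overlapped throughout (difference 0.14 ± 0.54, SE). The IgG genes are close relatives, as H2-M2 is of other MHC class I genes, and how reads that fit several copies were counted is not given in the sources used here.

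Of the 12 constant region genes 8 were tested, and 8 of 8 were higher at 26 M, with a median difference of 2.89 against -0.10 over all tested genes. None passed adjustment, and 5 of the 8 had an unadjusted p of at most 0.05, where 0.710% of all tested genes were higher at that p. Their summed level was 1302, 1026, 158, 181 and 367 RPM at 26 M. At 3 M it was 40.6 to 134 in 6 mice, below all of 26 M, and 866 in c1114. The 16 plasma cell genes had a smaller median, 0.42 (0.69 without c3668), with 14 higher and 2 at an unadjusted p of at most 0.05, Jchain and Tnfrsf13b. Tnfrsf13b, the receptor TACI for the B cell survival factors BAFF and APRIL, had 171, 234, 542, 204 and 250 normalized counts at 26 M against 42.6, 85.2 and 301 at 3 M (difference 1.47 ± 0.46, SE; limma, adjusted p = 1). Sdc1, the plasma cell surface proteoglycan that epithelia also make, was among the 2 lower members, at -0.64 (-0.11 without c3668). Edem2, which targets misfolded glycoproteins for degradation, had a difference of 0.39 (0.15 without c3668). Plasma cell transcripts summed to 948, 887, 764, 640 and 591 RPM at 26 M and to 293 to 370 in 6 mice of 3 M, with 1082 in c1114, so the groups did not overlap except for that mouse.

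**Figure D2:**
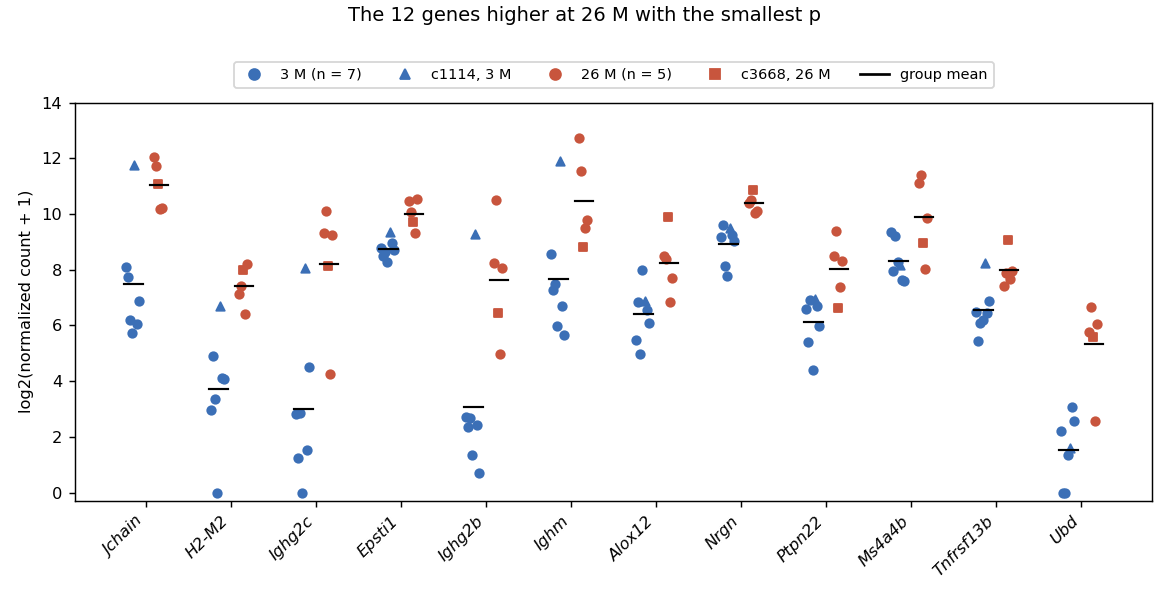
Normalized counts, as log2 of the count plus 1, of the 12 genes higher at 26 M with the smallest p in each library of 3 M (blue, n = 7) and 26 M (red, n = 5), with group means as lines, c1114 as triangles and c3668 as squares. For Jchain the 5 values of 26 M (1149 to 4194 normalized counts) lie above all of 3 M but c1114 at 3496. Nrgn is the only 1 of the 12 whose groups do not overlap.

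H2-M2 had 139, 168, 254, 84.6 and 292 normalized counts at 26 M and 0, 15.9 and 103 at 3 M. Only c1114, at 103, reached into the range of 26 M, and the next mouse had 28.9. The difference was 3.70 ± 0.88 (SE; limma, unadjusted p = 0.000109, adjusted p = 0.934), 4.71 and 2.35 within the sets and 3.56 without c3668. With each library weighted by its residual spread, a limma fit chosen after the data were seen, H2-M2 passed with a difference of 3.67 (adjusted p = 0.000562). The weights at 26 M were 8.28 and 4.59 in c620 and c2293, both of the second set. In c3775, c3667 and c3668 they were 1.21, 1.04 and 0.22, so this value rests largely on c620 and c2293.

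Genes of B and T cells were mostly higher at 26 M. Of 20 tested B cell genes 18 were higher, with a median difference of 0.38 (0.82 without c3668), and only Cd22, an inhibitory co-receptor of B cells, had an unadjusted p of at most 0.05. Pax5, the transcription factor that holds B cell identity, had 419, 544, 600, 506 and 416 normalized counts at 26 M and 218, 292 and 750 at 3 M, and its range overlapped through c1114. Ciita, the activator of MHC class II transcription, had 3368 in c3668 and 154 to 332 in the other 4 mice of 26 M, against 169 to 573 at 3 M. Its difference was 0.66, and -0.10 without c3668. Bank1, a B cell scaffold protein, differed by 0.12, and by 0.46 without c3668.

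T cell genes had a median difference of 1.10 (1.38 without c3668), with 24 of 28 tested members higher and 5 at an unadjusted p of at most 0.05, none of which passed adjustment. Among them, named for their p, were Cd3g, a chain of the T cell receptor complex, Cd8a, a co-receptor, Lck, a kinase of the receptor pathway, and Ctla4, an inhibitory receptor. Cd247, the zeta chain of the T cell receptor, had 571, 924, 238, 76.9 and 167 normalized counts at 26 M against 78.8, 108 and 290 at 3 M, with c2293 lowest of all 12. Lef1, a transcription factor of naive T cells, had 182 to 317 at 26 M and 277 to 347 at 3 M, a difference of -0.21. Summed over the list, T cell transcripts took 569, 786, 352, 320 and 550 RPM at 26 M and 219 to 390 at 3 M. Ptpn22, a phosphatase of lymphocyte receptor signalling, had 357, 666, 98.2, 165 and 316 normalized counts at 26 M against 19.9, 95.5 and 123, a difference of 1.90 ± 0.58 (SE; limma, unadjusted p = 0.00178, adjusted p = 1). Only c3668 lay within its range of 3 M. Ms4a4b, a membrane protein of T cells, had 2240, 2733, 498, 260 and 930 at 26 M against 192, 290 and 661, a difference of 1.56 ± 0.48 (SE), and c3668 and c2293 lay within the range of 3 M.

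Among cytotoxic and NK cell genes 12 of 19 were higher, with a median of 0.33 (0.93 without c3668). Klrk1, the activating receptor NKG2D, had 383, 217, 607, 180 and 199 normalized counts against 79.4, 133 and 205 at 3 M. Ccl5, a chemokine of activated T and NK cells, had 125, 314, 21.8, 21.4 and 72.7 against 0, 9.77 and 45.0, so 3 of 5 old mice lay above the young range. Tbx21, the transcription factor of type 1 lymphocytes, had 80.1, 94.2, 102, 44.0 and 99.6 against 0, 37.2 and 68.8, and 4 of 5 lay above. Klra4, an NK cell receptor named for its p, was the 1 member of the list lower at an unadjusted p of at most 0.05 (-2.27). Without c3668, 0 members were lower at that p.

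Interferon response genes were higher in 40 of 44 cases, with a median difference of 0.62 that was 1.09 without c3668. At an unadjusted p of at most 0.05, 4 were higher (Ifit1, Oasl2, Gbp7 and Iigp1, named for their p) and 0 lower. Without c3668 the count was 14 of 44, against 0.894% of all tested genes. Epsti1, an interferon-induced gene of epithelial and immune cells, had 1402, 1074, 829, 640 and 1470 normalized counts at 26 M (mean 1083 ± 358, SD, n = 5) and 308, 413 and 657 at 3 M (mean 440 ± 113, SD, n = 7). Of the old mice only c2293, at 640, lay below the highest young mouse, c1114. The difference was 1.27 ± 0.31 (SE; limma, unadjusted p = 0.000176, adjusted p = 0.934), 1.52 and 0.91 within the sets, and DESeq2 called it with an adjusted p of 0.0109. Gbp8, a guanylate-binding protein, had 1341, 1497, 523, 831 and 1426 against 557, 663 and 849, and Ly6e, an interferon-induced surface protein, had 2411, 2639, 562, 1023 and 1237 against 628, 1118 and 2125. In both, c3668 was the lowest of all 12 libraries. Trim30a, an interferon-induced TRIM protein, had 27297 in c3668 and 1806 to 8711 in the other mice of 26 M, against 1202 to 21057 at 3 M (difference 0.38, and -0.15 without c3668).

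Ubd, a ubiquitin-like modifier induced by interferon gamma and TNF, had 53.8, 101, 47.3, 4.95 and 64.9 normalized counts at 26 M against 0, 2.04 and 7.47 at 3 M (difference 3.79 ± 1.21, SE; limma, unadjusted p = 0.00282, adjusted p = 1). In 4 of 5 old mice it lay above every young mouse. Cxcl9, the chemokine that interferon gamma induces to attract T cells, had 515, 3928, 1.82, 8.79 and 167 at 26 M against 14.3, 23.9 and 85.2. Its spread at 26 M ran from below the lowest to far above the highest young mouse. The difference was 1.74 in limma (adjusted p = 1), 3.02 without c3668, and DESeq2 called it (adjusted p = 0.00145). Of 22 tested chemokines 15 were higher, with a median of 0.76, among them Cxcl12, which holds leukocytes in tissue, with 1785, 6176, 5469, 1715 and 1230 against 951, 1513 and 3383. Cxcl15, a chemokine of lung epithelium, had 4918 to 10706 at 26 M and 6034 to 10527 at 3 M and was lower by its difference (-0.29).

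Genes of antigen presentation were higher in 13 of 19 cases, with a median of 0.74 and none at an unadjusted p of at most 0.05 (0.46 and 3 without c3668). H2-Aa, an MHC class II chain, had 1512, 3265, 829, 3270 and 4458 normalized counts against 593 to 4178 at 3 M. H2-DMb1, which helps to load peptides on MHC class II, had 2792 in c3668 and 544 to 936 in the other old mice against 264 to 706 (difference 0.76, and 0.34 without c3668). Zbtb46, a transcription factor of dendritic cells and endothelium, had a difference of -0.23, and 0.05 without c3668. The ranges of all 3 genes overlapped.

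Of 23 genes of monocytes and interstitial macrophages 18 were higher, with a median of 0.77 and 5 at an unadjusted p of at most 0.05. Of 19 tested alveolar macrophage genes 11 were higher, with a median of 0.13 and 0 at that p (15 higher and 0.54 without c3668). Of 7 tested mast cell and basophil genes 2 were higher, with a median of -0.13 and 1 lower at that p (4 higher and 0.01 without c3668). Cybb, the heme chain of the phagocyte NADPH oxidase, had 1241, 786, 1636, 1104 and 2652 normalized counts at 26 M against 373, 534 and 1316 at 3 M (difference 1.21 ± 0.41, SE; limma, unadjusted p = 0.00484, adjusted p = 1). The next mouse of 3 M after c1114 had 703, below all old mice. Cx3cr1, the fractalkine receptor, had 1474, 1770, 1443, 1139 and 1435 against 474, 1041 and 1149, and Ikzf1, a transcription factor of all lymphoid cells, had 1216, 1447, 1470, 987 and 1770 against 518, 843 and 1587. The 16 immune genes that the study names for lung, a list drawn from these samples and so no independent evidence of direction, were higher in 15 cases with a median of 1.06. Of the 16, 10 had an unadjusted p of at most 0.05, 4 without c3668 (median 0.88), and 0 passed adjustment.

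Neutrophil genes were higher in 12 of 13 cases, with a median of 0.99 (1.42 without c3668). S100a9, a calprotectin subunit, had 484, 488, 7092, 403 and 1293 normalized counts against 169, 341 and 587 at 3 M, so its mean at 26 M rested largely on c3668 (difference 1.69, and 0.98 without it). DESeq2 called S100a9 with an adjusted p of 0.021. Csf3r, the G-CSF receptor, had 481, 296, 160, 255 and 612 against 105, 181 and 302, and Ltf, lactoferrin of neutrophil granules, had 297, 719, 216, 728 and 736 against 164, 387 and 957. The ranges of both overlapped.

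A pair of genes abundant in platelets was among the 12 with the smallest p. Nrgn, a calmodulin-binding protein of neurons and platelets, had 1357, 1462, 1865, 1048 and 1102 normalized counts at 26 M (mean 1367 ± 327, SD, n = 5) and 216, 584 and 778 at 3 M (mean 528 ± 210, SD, n = 7). The groups did not overlap, and the difference was 1.47 ± 0.43 (SE; limma, unadjusted p = 0.00134, adjusted p = 1). Alox12, the platelet 12-lipoxygenase, had 360, 331, 940, 113 and 206 against 30.8, 92.1 and 253, with c3668 highest (difference 1.85 ± 0.52, SE, and 1.45 without c3668). Erythroid transcripts, another mark of blood in the tissue, took 1456, 1012, 144, 575 and 554 RPM at 26 M and 380 to 819 at 3 M. Brain transcripts were highest in c3668, where Nrgn was highest too. The part of either in these values was not tested.

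**Figure D3:**
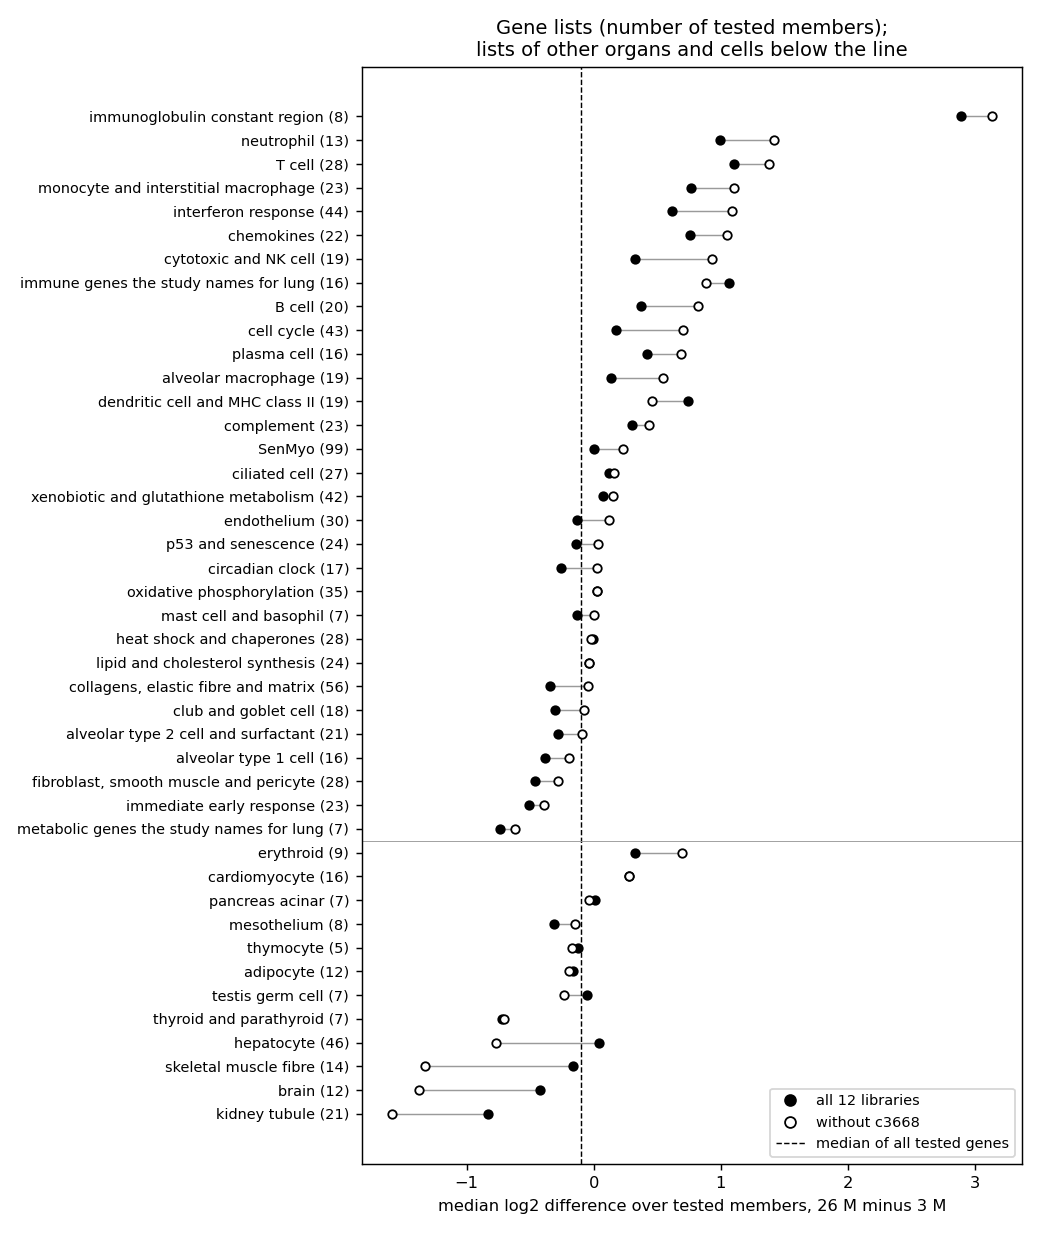
Median log2 difference between 26 M and 3 M over the tested members of each gene list (number of members in brackets), with all 12 libraries (filled) and without c3668 (open), and the median of all tested genes in the full data (-0.10) as a dashed line. The constant region genes stand at 2.89 and lists of lymphoid cells, macrophages, neutrophils and the interferon response between 0.13 and 1.10, while lists of epithelium and stroma lie between -0.46 and 0.12.

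Genes of the lung's own epithelium and stroma had small differences, most of them below 0, as were 12321 of all 21257 tested genes. Ciliated cell genes went the other way, with 18 of 27 higher and a median of 0.12 (19 higher and 0.16 without c3668). Of 21 tested genes of alveolar type 2 cells and surfactant 17 were lower at 26 M, with a median of -0.28 (-0.09 without c3668), and none had an unadjusted p of at most 0.05. Sftpc had 26432, 24388, 3439, 8933 and 5756 normalized counts at 26 M and 5641, 13840 and 39802 at 3 M, and its lowest value was in c3668. Alveolar type 1 genes had a median of -0.38 with 15 of 16 lower (-0.19 with 5 higher without c3668), and club and goblet cell genes -0.30 with 16 of 18 lower (-0.08 with 8 higher without c3668). Emp2, a membrane protein of type 1 cells, had 6759, 7091, 15375, 7058 and 5335 against 5664, 11257 and 19235. Scgb1a1 had 76626, 138774, 56302, 95091 and 91089 against 99908, 108746 and 126690, so that 4 of 5 old mice lay below the young range and 1 above it. The difference, -0.33 ± 0.38 (SE), was smaller than its error.

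Other genes highest in these lists differed by less than 0.5 in limma. They were Lmo7, a junction protein (-0.39, and -0.19 without c3668), Sec14l3, a lipid-binding protein (0.10, and 0.41 without c3668), Cbr2, a carbonyl reductase of club cells (-0.38, and 0.19 without c3668), and Scgb3a2, a secretoglobin (-0.28, and -0.16 without c3668). Endothelial genes had a median of -0.13 with 19 of 30 lower, which turned to 0.12 with 20 of 30 higher without c3668. Genes of fibroblasts, smooth muscle and pericytes had -0.46 with 23 of 28 lower (-0.28 without c3668), and genes of collagens, elastic fibre and matrix -0.34 with 42 of 56 lower. For the last list the median was -0.04 without c3668, in which the matrix genes took 2400 RPM, the least of the 12 libraries. Immediate early genes were lower in 19 of 23 cases (median -0.51), and their summed level at 3 M was 6042 to 9951 RPM in c1114, c1164 and c1190 and at most 4864 in the other 4. Those 3 are the second set of mice, and at 26 M that set was higher as well, at 5222 and 5824 against 1822 to 3471 in the first. An edgeR fit chosen after the data were seen had the sets as a term on 9 libraries, without c3668, c1164 and c1190. There c1114 was the only mouse of 3 M left in the second set, and its 9951 RPM was the highest of the 12 libraries. The 3 genes called lower at 26 M in this fit were the immediate early genes Fosb (-2.38), Egr1 (-1.25) and Dusp1 (-1.60). The 8 called higher were Ighg1, Cxcl9, Itgb3, Spink5, Themis, Ccl12, Iigp1 and Itga2b. Without the term 0 genes were called.

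The 12 genes lower at 26 M with the smallest p had differences of -0.82 to -2.39, and 1 of them, Fzd2, had groups that did not overlap. Fzd2, a receptor for Wnt ligands, had 76.1, 52.8, 0, 88.5 and 80.4 normalized counts at 26 M and 107, 145 and 288 at 3 M (difference -2.39 ± 0.79, SE; limma, unadjusted p = 0.00399, adjusted p = 1). The 0 was c3668, and without it the difference was -1.15. Upk3b, a uroplakin of mesothelium and urothelium, had 184, 220, 0, 240 and 140 against 236, 305 and 481 (difference -2.24 ± 0.73, SE, and -0.72 without c3668). In Ube2v2, a ubiquitin-conjugating enzyme variant, c3668 had 1.82 and the other 4 old mice 121 to 157, against 149 to 263 at 3 M (-1.55, and -0.41 without c3668). Pxdc1, a gene of little known function, had 7.27 in c3668 and 175 to 328 in the others (-0.60 without c3668).

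Tmem200a, a transmembrane protein, was lower with and without that library. It had 88.6, 43.5, 111, 53.9 and 40.7 normalized counts at 26 M against 75.7, 231 and 359 at 3 M (difference -1.68 ± 0.58, SE; limma, unadjusted p = 0.00559, adjusted p = 1), -1.88 without c3668 and -1.79 and -1.57 within the sets. The groups overlapped through 1 young mouse, c1114, at 75.7, below c3775 and c3668. Kif26b, a kinesin of developing tissue, had 181, 170, 56.3, 169 and 124 against 180, 325 and 541 (-1.38, and -1.08 without c3668), and c1114 was again the lowest young mouse. Hspg2, the basement membrane proteoglycan perlecan, had 444, 524, 545, 1131 and 989 against 959, 1271 and 1643 (-0.88, and -0.80 without c3668), with -1.31 in the first set of mice and -0.23 in the other. Klhl42, an adaptor of a ubiquitin ligase, Bcl7a, a chromatin remodelling subunit, Fam136a and Rbm12b2 differed by -1.21, -1.02, -1.96 and -1.36 in this order, and in each the 3 old mice of the first set lay below the 2 of the other. Without c3668 these were -0.76, -0.49, -1.57 and -0.77. Pdzd2, a PDZ domain protein, differed by -0.82, and by -0.50 without c3668.

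Cdkn1a and Cdkn2a, the cell cycle inhibitors that the study follows as marks of senescence, did not pass. Cdkn1a had 197, 217, 142, 531 and 549 normalized counts at 26 M and 71.4, 156 and 491 at 3 M (difference 0.74 ± 0.80, SE; limma, unadjusted p = 0.356). Its values were higher in the second set of mice at both ages. Within the sets the difference was 0.87 and 0.67, and in the second set both old mice (531 and 549) lay above the 3 young ones (250 to 491), while in the first 1 old mouse, c3668, lay below the highest young one. With the sets as a term the difference was 0.78 (limma, unadjusted p = 0.27, adjusted p = 1.00). Cdkn2a had 5.25, 25.9, 100 (in c3668), 9.34 and 10.5 against 1.37, 14.0 and 38.3 (0.58 ± 1.30, SE; limma, unadjusted p = 0.655), and -0.03 without c3668. The 99 tested genes of SenMyo, a published list of senescence genes, were higher in 49 cases and lower in 50 (61 higher without c3668), and the 24 genes of the p53 and senescence list had a median of -0.14, which turned to 0.03 with 14 higher without c3668.

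The 33 lung libraries of 5 to 20 M take no part in the difference between 26 M and 3 M, but they share in its estimate of the spread. Some of them stood further apart than any of the 12. The library c2231 (5 M) had reads on 30828 genes. The hepatocyte list took 22217 RPM in c2254 (5 M), and the cardiomyocyte list 10255 RPM in c3580 (20 M). All 33 were kept in both fits, and how these libraries came to differ was not tested. A slope of the log2 value on age in months passed in 226 genes that rose (1.06%) and 62 that fell (0.292%). The split depended on the fit, with 268 rising and 9 falling in edgeR, 175 and 29 on log2 age, and 373 and 168 with the sets of mice as a term. Jchain rose by 0.18 ± 0.03 per month (SE; limma, adjusted p = 0.00376), with medians of 267, 537, 898 and 1764 normalized counts at 5, 8, 14 and 20 M. Ighm rose by 0.14 ± 0.03 per month (adjusted p = 0.0133), with medians of 188, 232, 484 and 893, and Epsti1 by 0.07 ± 0.02 (adjusted p = 0.0416), with medians of 517, 436, 692 and 742. Tnfrsf13b rose too, by 0.10 ± 0.03 per month (adjusted p = 0.0275). The other 20 of the 24 genes named for their p did not pass, among them Ighg2c, with medians of 27.1, 22.3, 34.6 and 50.3, H2-M2, with 42.5, 43.8, 61.3 and 195, and all 12 lower ones.

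**Figure D4:**
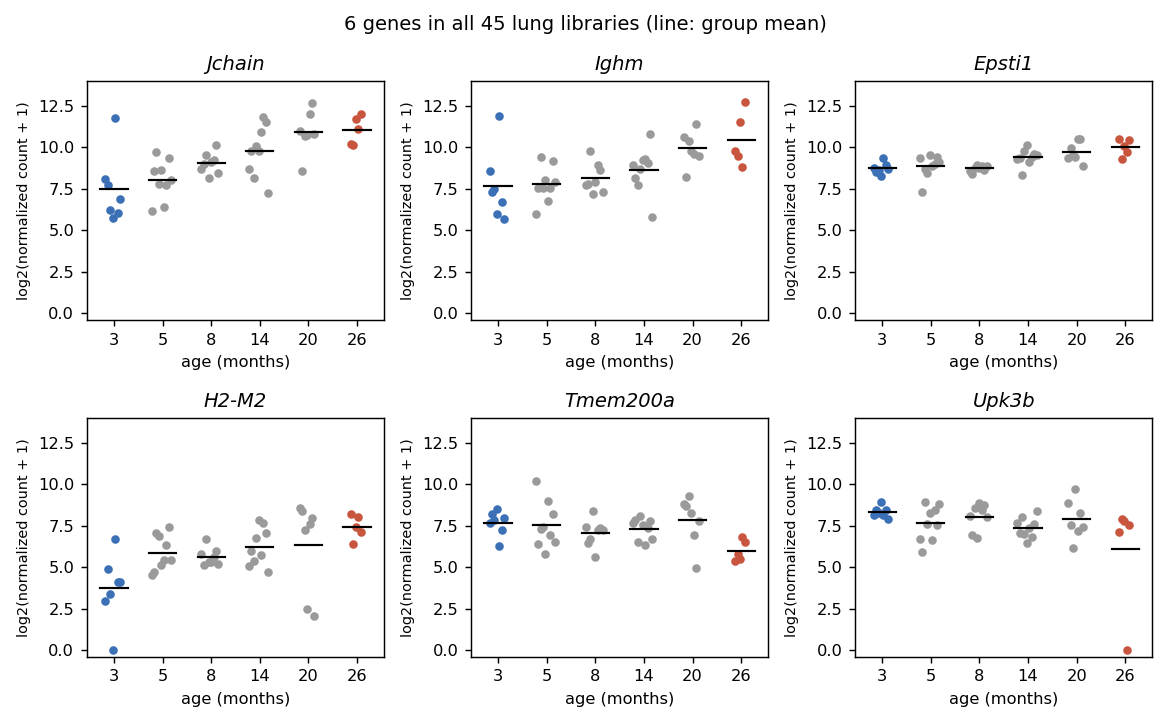
Normalized counts, as log2 of the count plus 1, of 6 genes in all 45 lung libraries by age in months (blue 3 M, grey 5 to 20 M, red 26 M; 1 point per mouse, line for the group mean). Jchain medians run from 116 at 3 M over 267, 537, 898 and 1764 to 2181 at 26 M, with c1114 high at 3 M, and Upk3b at 26 M is at 0 in c3668.

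A suffix b of unstated meaning in the column names marks 1 library each of 3, 5, 8 and 26 M, 6 of 14 M and 4 of 20 M. With this suffix as a term, chosen after the data were seen, 1 gene kept an adjusted p of at most 0.05 for the slope, and it was Jchain (adjusted p = 0.0495). c3668 carries the suffix. Of the 226 genes that rose over 5 to 20 M, 209 were higher at 26 M than at 3 M (92.5%, against 42.0% of all tested genes), with a median of 0.35. Without c3668, 82 of the 226 were higher (36.3%, against 49.4% of all tested genes), with a median of -0.12. Of the 62 that fell, 40 were lower at 26 M with c3668, and 44 were higher without it.

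In the kidney libraries of the same mice, which were normalized on their own, 807 genes (4.79%) were higher at 26 M and 560 (3.33%) lower by the same test. Jchain differed there by 2.80 ± 0.53 (SE; limma, adjusted p = 0.00109), Ighm by 4.14 ± 0.68 (adjusted p = 0.000174), Ighg2c by 3.90 (adjusted p = 0.00176), Ighg2b by 4.16 (adjusted p = 0.00387) and Cybb by 1.19 (adjusted p = 0.00207). Of the lower genes of lung, Pdzd2 was lower in old kidney too, by -0.81 (adjusted p = 0.00382), and Fzd2 was higher, by 1.14 (adjusted p = 0.0143). Cdkn1a was higher by 1.48 (adjusted p = 0.0129). Other genes named for lung did not pass in kidney, among them H2-M2 (adjusted p = 0.214) and Epsti1 (0.321, adjusted p = 0.561). Alox12 and Nrgn differed there by -0.197 and -0.88 (adjusted p = 0.715 and 0.692). In skeletal muscle 34 genes (0.195%) were higher and 18 (0.103%) lower, among them Cdkn1a, higher by 1.69 (adjusted p = 0.000447). Jchain and Ighm did not pass in skeletal muscle, at 1.28 and 0.426 (adjusted p = 0.546 and 0.703). In heart 23 (0.145%) were higher and 0 lower, among them Ubd, higher by 3.78 (adjusted p = 0.00519), beside 3.79 in lung. Jchain, Ighm and Epsti1 did not pass in heart, at 0.24, 0.404 and 0.579 (adjusted p = 0.998, 0.998 and 0.704). Ighg2c did not pass there either (1.44, adjusted p = 0.443). In testis 2 genes (0.0102%) were higher and 1 (0.00510%) lower, and none of the genes named for lung passed. Whether lung differed from these organs was not tested.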

How the data were processed

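Bulk RNA was measured in lung of 45 mice, 12 of them of 26 M (n = 5) or 3 M (n = 7). Per the study's methods, poly(A) RNA was reverse transcribed with random primers, and single reads were trimmed, aligned to GRCm38 with HISAT2 2.1.0 and counted per gene in R 3.5.1 after bcl2fastq 2.20. No molecular identifiers were used. The authors deposited a normalized signal per gene, made for each organ separately from raw counts with size factors of DESeq2. From the steps between low values whole reads were recovered for 100% of values at a tolerance of 0.001, and their totals are the depths given. These depths limit low genes most: a gene at 10 normalized counts rests on few reads. No column was left unused (0), and mice were numbered within groups in accession order, so p-values measure the spread between mice of 1 cohort.

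Genes were kept where 5 or more of the 45 lung columns held 10 or more normalized counts (21257 of 51810). The log2 of the count plus a pseudocount of 1 was fitted with limma 3.58.1 in R 4.3.3 (6 ages as a factor, trended prior) for 26 M minus 3 M, two-sided, with Benjamini-Hochberg adjustment over all tested genes at 0.05. The slope on age used the 33 libraries of 5 to 20 M. Fold differences are on this log2 scale, which understates those of low genes. edgeR 4.0.16 and DESeq2 1.42.0 on the recovered reads, other filters, pseudocounts, scalings, terms and left-out mice were alternatives. The plain limma, edgeR and DESeq2 fits of 26 M minus 3 M and the limma slope were run on simulated data. The other alternatives were not. Named are the 12 genes per direction with the smallest p among those with a group mean of at least 50, since none was called (variable segments, predicted genes and pseudogenes were passed over, 1 higher and 1 lower), the 3 tested members with the highest mean of lists of plasma, B, T, cytotoxic and NK cells, neutrophils, MHC class II, constant regions, interferon response, chemokines, alveolar type 1 and type 2 cells, club cells and the study's immune genes, and Cdkn1a, Cdkn2a and Jchain. Such members of the other lists of the 43 are given only where a result turns on them, and 1 gene that the rule names is not reported here. The comparison, the genes and the lists were chosen with earlier results of these data known. Levels of other organs come from tables that were normalized separately, and the liver table was not used here, because earlier results of these data found its libraries to go against their labels.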

Additional observations from a re-analysis of the deposited data

Results flagged for a closer look

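In each group, the gap of the highest or lowest library to the next was set against the group's range and Dixon's 95% critical value. Of 142 groups of values tested, over 62 genes, 7 lists, the depth and the number of genes with a read at both ages, 35 gaps were larger. The critical value gives about 1 in 20 for independent, normally distributed values. These values were untransformed and came from the same libraries, so the 35 cannot be set against that rate and only mark values to look at. The library c3668 was the one that stood apart in 12 of these.

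At 26 M, c3668 stood apart in the 4 lists of other organs that were tested, at 8147 RPM (summed reads scaled to the reads of the library) for hepatocyte genes (next 1445), 1758 for kidney tubule (next 256), 1205 for skeletal muscle fibre (next 39.8) and 2411 for brain (next 403). Other such lists were not tested, and in some of them c3668 was not high, as in cardiomyocyte genes, at 513 against 398 to 607 in the other mice of 26 M, and thyroid and parathyroid genes, at 5.32, the lowest of the 12 libraries. Immune genes in which it stood alone were Tnfrsf13b, with 542 normalized counts (next 250), Ciita, with 3368 (next 332), S100a9, with 7092 (next 1293), H2-DMb1, with 2792 (next 936), and Trim30a, with 27297 (next 8711). Emp2 of alveolar type 1 cells had 15375 there (next 7091) and Cdkn2a had 100.0 (next 25.9). It was the low library for Ube2v2, with 1.82 (next 121). The other library of 26 M that stood apart was c3667 (replicate 2), with 1438 for Ighg2b (next 304) and 3928 for Cxcl9 (next 515).

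At 3 M, c1114 stood apart in genes of plasma cells, with 3496 normalized counts of Jchain (next 275), 3805 of Ighm (next 381), 264 of Ighg2c (next 22.0), 626 of Ighg2b (next 5.51), 301 of Tnfrsf13b (next 117) and 958 of Sdc1 (next 679). Its summed levels were 866 RPM for constant region genes (next 134) and 1082 for plasma cell genes (next 370). Other immune genes were high there too, Pax5 with 750 (next 364), H2-Aa with 4178 (next 1386), H2-M2 with 103 (next 28.9), Ikzf1 with 1587 (next 916), Cybb with 1316 (next 703) and S100a9 with 587 (next 349).

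Elsewhere at 3 M, c2908 (replicate 4) stood apart with 253 of Alox12 (next 115), 481 of Upk3b (next 341), 21057 of Trim30a (next 7933) and 3383 of Cxcl12 (next 1919). In c953 Cxcl9 had 85.2 (next 43.9) and the skeletal muscle fibre list 475 RPM (next 58.3). In c1190 Ltf had 957 (next 463). What set these libraries apart was not tested.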

How the results depend on the processing

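The count of 0 genes called between 26 M and 3 M was the same with a pseudocount of 0.1, no filter, a filter of 50 normalized counts, quantile normalization, the 12 libraries alone, edgeR, and terms for the suffix b, depth, hepatocyte share or set of mice. It was 25 in DESeq2, and 0 to 3 with each mouse left out, the 3 being Jchain, Ighm and Ighg2b without c1114. Among alternatives chosen after seeing the data it was 33 with library weights (25 higher, 8 lower). These weights were largest for c620 and c2293 of 26 M, at 8.28 and 4.59. On the 9 libraries without c3668, c1164 and c1190, c1114 was the only mouse of 3 M left in the second set. Among the other alternatives of this kind the count was 11 in edgeR on these 9 libraries with the sets of mice as a term (8 higher, 3 lower). It was 0 there without the term, and 0 in limma without those 3 libraries. The cause was not tested. Genes with a slope numbered 288 (226 rising, 62 falling), 317 with a pseudocount of 0.1 (232 and 85), 277 in edgeR (268 and 9), 204 on log2 age (175 and 29), 1 with the suffix b as a term (rising) and 541 with the sets of mice (373 and 168), the last 2 chosen after seeing the data. No paired analysis was possible because the labels give no replicate numbers and the mice of 26 M and 3 M are different animals.

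Of 62 named genes, 51 kept their direction in all of 28 settings, and 49 of 1735 values were of opposite sign, in the 11 genes that follow. All 11 had differences under 0.7 in the full data. With each mouse left out in turn, differences ran from -0.0328 to 0.971 for Cdkn2a, -0.099 to 1.01 for Ciita, -0.406 to 0.0481 for Zbtb46, -0.15 to 0.83 for Trim30a and -0.671 to 0.185 for Cbr2, all of opposite sign without c3668 alone. They ran from -0.0776 to 0.312 for Ighd (without c1164 or c1190), -0.215 to 0.456 for Bank1 (without c3775 or c3667), -0.557 to 0.343 for Sftpd (6 mice) and -0.308 to 0.413 for Sec14l3 (5 mice). Without c3668, c1164 and c1190 the reversed differences were -0.135 for Edem2, -0.233 for Ighd, -0.284 for Ciita, 0.0163 for Zbtb46, -0.321 for Trim30a, -0.0981 for Sec14l3 and 0.0546 for Cbr2. With library weights they were -0.153 for Cdkn2a, -0.0827 for Ighd, 0.321 for Zbtb46, -0.0275 for Trim30a and -0.559 for Sec14l3. In edgeR on 9 libraries they were -0.267 for Cdkn2a, -0.109 for Edem2, -0.274 for Ighd, -0.382 for Ciita, 0.0835 for Zbtb46, -0.717 for Trim30a and 0.0468 for Cbr2. With the sets of mice added to that fit they were -0.0237 for Cdkn2a, -0.211 for Ighd, -0.517 for Ciita, 0.0323 for Sftpc, 0.0265 for Sftpd and 0.109 for Cbr2. Ighd was -0.0442 in edgeR, -0.0158 in DESeq2 and -0.0058 in edgeR with the sets of mice, and Sec14l3 was -0.0261 after quantile normalization. Depth limits genes of a few reads, such as Ubd and Ighg2b at 3 M, and 5 mice of 26 M, 1 of them c3668, limit all differences.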

Other observations

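After Nrgn and Alox12 had been seen among the genes with the smallest p, 20 genes of platelets and megakaryocytes were compiled, so their direction is a description and carries no test. Of 18 that were tested 16 were higher at 26 M, with a median log2 difference of 1.39 (1.77 with 18 of 18 higher without c3668) against -0.10 over all tested genes. In limma 7, among them Alox12, were higher at an unadjusted p of at most 0.05, against 0.710% of all tested genes, and 0 passed adjustment. Their summed level was 955, 754, 408, 405 and 723 RPM (summed reads scaled to the reads of the library) in the 5 libraries of 26 M and 168 to 346 in the 7 of 3 M, so the groups did not overlap, with c1114 the highest of 3 M.

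Ppbp, a chemokine precursor of platelet granules, had 1428, 1125, 565, 649 and 1195 normalized counts at 26 M and 160, 365 and 588 at the lowest, median and highest of 3 M. Itgb3, the beta chain of the platelet fibrinogen receptor, had 2863, 2214, 331, 932 and 1746 against 493, 570 and 885, and its alpha chain Itga2b had 909, 925, 304, 130 and 326 against 76.6, 130 and 298. Pf4, platelet factor 4, had a mean of 142 at 26 M and 81.3 at 3 M, yet a log2 difference of -0.15, and Clec1b, a platelet receptor, differed by -0.93. Both were at 0 in c3668, and without it the differences were 1.33 and 0.69. The erythroid list, as another measure of blood, was not higher in every old mouse, at 1456, 1012, 144, 575 and 554 RPM against 380 to 819. The part of blood content in the platelet values was not tested.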
